A study of Mus musculus with 2 samples.

Results

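Pi16-positive adventitial fibroblasts were chosen from 2 single-cell RNA sequencing (scRNA-Seq) libraries of the mouse temporomandibular joint (TMJ) by their unique molecular identifiers (UMIs), each of which marks 1 captured RNA molecule. Of 13380 deposited barcodes, 6681 held at least 500 genes, at most 10% mitochondrial UMIs and at most 1% hemoglobin UMIs. Of these, 301 were members: 163 among 2667 PBS cells and 138 among 4014 CFA cells. A member held at least 1 UMI of Pi16 and 3 of Dcn, at least 3 of Dpt, Clec3b and Col14a1 together, under 0.2% of its UMIs from the lubricin gene Prg4, fewer than 5 of the tendon genes Tnmd and Thbs4, none of the immune gene Ptprc and fewer than 2 of the endothelial genes Pecam1 and Cdh5. The levels of these genes follow from the choice and are not results.

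Both libraries came from wild-type C57BL/6 mice labelled as 8 to 10 weeks old. According to the methods, female mice received 10 µL of phosphate-buffered saline (PBS) or of complete Freund's adjuvant (CFA, killed mycobacteria in oil, at 5 mg/mL) in both TMJs at 8 weeks and were killed 3 weeks later, with 3 given as the number of TMJ collections. The digest pooled bone, disc, muscle and ligament of the joint, so members cannot be assigned to 1 of these tissues, and magnetic beads removed cells with the immune surface protein CD45. With 1 library per condition there is no spread between replicates, and differences are given without p-values.

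Pi16 (chromosome 17, 29317680 to 29330593, plus strand, GRCm38) encodes peptidase inhibitor 16, a secreted protein. Fibroblasts that carry it are known from the adventitia, the outer coat of larger vessels, and from the connective tissue sheets of many organs, where they are often described as progenitor-like together with the surface peptidase Dpp4 and the stem cell antigen Ly6a. In a joint, fibroblasts form a lining layer, whose cells secrete lubricin, and a sublining layer of loose connective tissue with vessels. Like other stromal cells, fibroblasts build collagen and elastic fibres, secrete complement and chemokines, and raise antigen presentation genes when exposed to interferons.

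A level is given here as CPM, the UMIs of a gene summed over a library's members and divided by all UMIs of those members in units of 1000000, so it is a property of the members as a whole. The members held a median of 11760 UMIs and 3820 genes in PBS and 12178.5 UMIs and 3810.5 genes in CFA, and 1987592 and 1872244 UMIs in sum. Ratios carry exact 95% intervals that cover counting error only, and a gene was counted as higher or lower when its ratio passed 2-fold. No barcode sequence occurred among the members of both libraries, against 10 among all deposited barcodes. Doublets were not called, and single members that held transcripts of another cell type are named beside the results they touch.

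The label was checked against markers that the choice had not used. Pdgfra, a receptor carried by most fibroblasts, was at 345 CPM in PBS and 435 CPM in CFA members and at 4.58 and 1.22 CPM in endothelial cells. Cells that met every condition except Pi16 held it at 203 and 232 CPM. Cd34, a sialomucin of adventitial cells, was at 717 and 659 CPM in members, and 158 PBS and 127 CFA members held at least 1 of its UMIs. Markers of cell types other than fibroblasts were low. The 8 endothelial markers summed to 1.96% and 1.68% of their level in endothelial cells, most of it from the angiopoietin receptor gene Tek. The 8 mural markers summed to 0.605% and 0.505% of their level in mural cells. The 8 immune markers summed to 0.198% and 0.615% of their level in immune cells, Ptprc being at 0 by the choice. Lyz2, lysozyme of myeloid cells, was at 3.02 of 11.1 CPM of the immune sum in PBS members and at 134 of 164 CPM in CFA members. It was spread thinly over 108 of 138 CFA members with at most 7 UMIs in a cell, and it was at 244 CPM in endothelial, 238 CPM in glial and 200 CPM in mural cells of the same library. The 8 glial markers went from 0.172% to 1.37% of their level in glia. The 8 neutrophil markers went from 0.0225% to 0.0848% of their neutrophil level. Markers of the lining fibroblasts were higher. These 8 summed to 448 and 732 CPM, 2.48% and 7.55% of their level in Prg4-high lining cells. Among them, Prg4 was limited by the choice, and Cd55 is also counted as an adventitial progenitor gene below.

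Members made up 6.11% of kept cells in PBS (163 of 2667, exact interval 5.23% to 7.09%) and 3.44% in CFA (138 of 4014, interval 2.90% to 4.05%). Both intervals cover counting error only, and the denominator includes immune cells left after depletion, 159 non-neutrophil immune cells in PBS and 865 in CFA by the gates used here. Without the hemoglobin limit, which removed more PBS than CFA barcodes, members were 229 of 5845 PBS (3.92%) and 140 of 4353 CFA cells (3.22%). Within the sublining fibroblasts, meaning members plus the 155 PBS and 92 CFA cells that met every condition except Pi16, members were 51.3% in PBS (interval 45.6% to 56.9%) and 60.0% in CFA (interval 53.4% to 66.4%), and these intervals overlap. When the rule was applied after each cell had been thinned to 2000 UMIs, the shares of sublining fibroblasts were 39.3% and 63.7%. The Pi16 limit of 1 UMI cut through a continuous range: 21 PBS and 15 CFA members held exactly 1 UMI, the median was 8 and 10.5 UMIs and the highest value 122 and 176.

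Members were first set against the Pi16-negative sublining cells of the same library, a contrast that the choice itself defines and that is therefore described only. Of 8286 genes with at least 50 UMIs over all members, 299 (3.61%) were at least 2-fold higher in members in both libraries and 156 (1.88%) were at least 2-fold lower in both. Of 20 adventitial progenitor genes, 16 were among the higher genes and none among the lower ones. Dpp4, the surface peptidase, was at 201 CPM in PBS members against 35.3 CPM in Pi16-negative cells, and at 199 against 13.0 CPM in CFA, ratios of 5.70 and 15.3. Anxa3, a calcium-dependent phospholipid-binding protein, had ratios of 5.69 and 5.19, and Cd248, endosialin of stromal progenitors, had ratios of 4.31 and 10.3. Opcml, a cell adhesion gene of the immunoglobulin family, had ratios of 4.54 and 6.92. The other 4 stayed under 2-fold in at least 1 library, namely Igfbp5, Igfbp6, Tppp3 and fibronectin (Fn1), and Fn1 was below the Pi16-negative level in PBS.

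**Figure D1:**
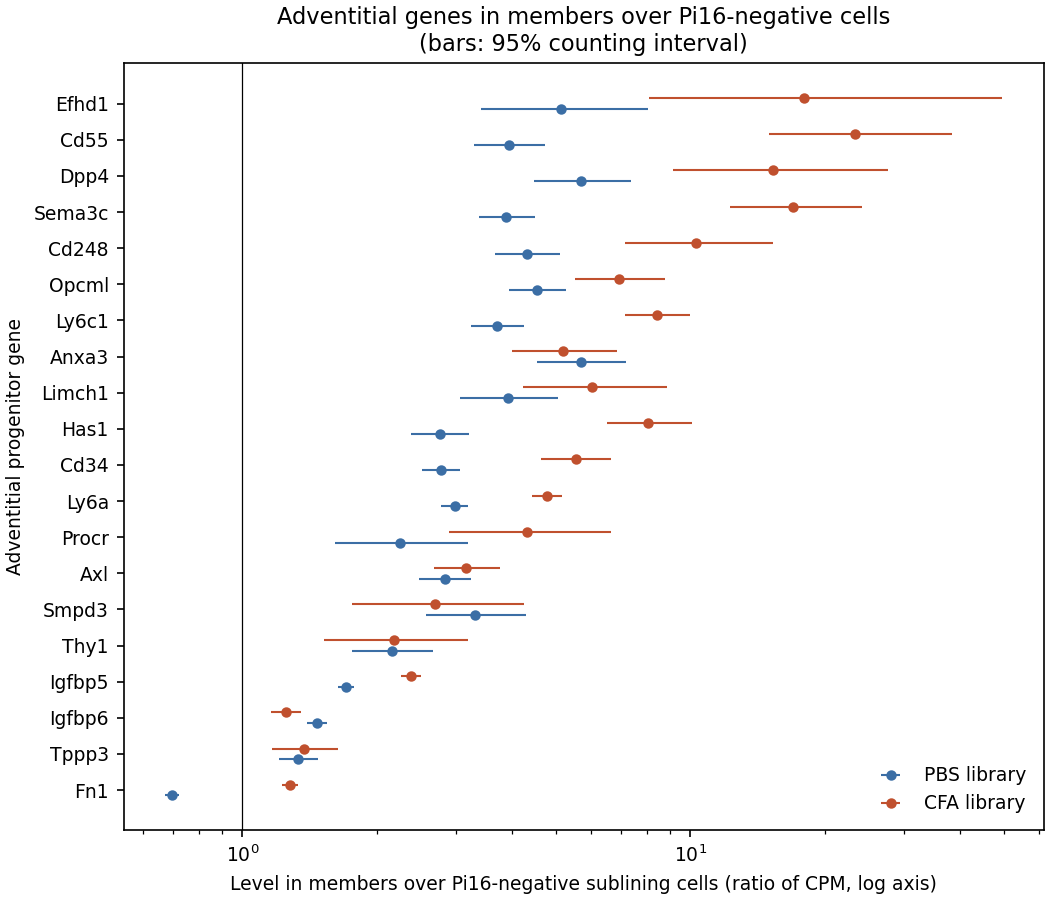
Each of the 20 adventitial progenitor genes is drawn as the ratio of its CPM in members to its CPM in Pi16-negative sublining cells (log axis), with PBS in blue, CFA in red and bars for the 95% counting interval. All but Fn1 lie to the right of 1 in both libraries, and Dpp4 moves from 5.70 in PBS to 15.3 in CFA.

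Elastic fibre and microfibril genes also stood higher in members, 10 of 19 in both libraries. Mfap5, a microfibril protein, was at 2008 CPM in PBS and 1396 CPM in CFA members against 456 and 257 CPM in Pi16-negative cells. Fbn1, which encodes fibrillin-1, the backbone of microfibrils, was at 3.64 and 4.95 times its level in Pi16-negative cells, and elastin (Eln) at 3.71 and 2.52 times. Complement genes were higher in 7 of 12, with ratios of 4.36 and 4.50 for C3, the central component, and 8.26 and 6.53 for factor B (Cfb), which forms the alternative pathway convertase. No collagen of 16 was 2-fold higher in both libraries.

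Over all genes named by size, ranked by the smaller of their ratios in both libraries, Tek came first, at 113 against 8.04 CPM in PBS (ratio 14.1) and 107 against 12.2 CPM in CFA (ratio 8.84). Tek is best known from endothelium, where it was at 290 and 375 CPM, but the other endothelial markers did not accompany it in members: Kdr was at 5.03 and 2.67 CPM, Flt1 at 4.02 and 3.74 CPM and Emcn at 1.01 and 0.534 CPM. Tek UMIs were held by 57 PBS and 59 CFA members. Pcolce2, an enhancer of procollagen processing, had ratios of 4.34 and 6.49, Adgrd1, an adhesion G protein-coupled receptor, 4.00 and 11.1, and 1700019D03Rik, an uncharacterised gene, 3.95 and 5.80. Vegfd, a lymphatic growth factor, was at 7.25 and 10.2 times, Hgf, hepatocyte growth factor, at 3.48 and 8.89 times, and the alarmin gene Il33 at 3.06 and 4.86 times the Pi16-negative level.

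The 10 genes named as lowest in members against Pi16-negative cells were each under 0.2 of their level in another cell type, a level that free RNA could carry. Fmod, a small proteoglycan of tendon, was at 59.4 and 34.7 CPM in members against 1069 and 1469 CPM in Pi16-negative cells, and 89.0% and 86.2% of its member UMIs came from 3 cells in each library. Tenascin C (Tnc), tenascin N (Tnn), collagen XII (Col12a1), aggrecan (Acan), the potassium channel gene Kcnma1, Pdzrn4, Rgcc and the transcription factor genes Sox6 and Runx2 had ratios between 0.00416 for Acan in CFA and 0.145 for Rgcc in PBS. The Pi16-negative gate held more mural and tendon transcripts: its 8 mural markers summed to 1841 and 1472 CPM against 118 and 91.9 CPM in members, and its 8 tendon markers to 1307 and 1618 CPM against 117 and 69.4 CPM. Most of each sum came from 1 gene, the smooth muscle actin gene Acta2 at 1390 and 932 CPM, and Fmod at 1069 and 1469 CPM. The part of these transcripts in the ratios above was not tested.

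At the edge of the choice, cells with 0 and with exactly 1 Pi16 UMI held Dpp4 at 35.3 and 59.4 CPM in PBS and at 13.0 and 0 CPM in CFA, and Fmod at 1069 and 386 CPM in PBS and 1469 and 31.9 CPM in CFA. Levels were also read along the amount of Pi16 after every sublining fibroblast had been thinned to 2000 UMIs. Dpp4 was at 56.9, 118 and 264 CPM in PBS cells with 0, 1 and at least 2 Pi16 UMIs, and at 36.0, 242 and 257 CPM in CFA. Mfap5 was at 760, 1779 and 2439 CPM in PBS and 396, 1000 and 1618 CPM in CFA, so it was higher with more Pi16 in both. Sema3c, a secreted guidance factor, was at 144, 338 and 608 CPM in PBS and 148, 161 and 806 CPM in CFA, where the step lay between 1 and more UMIs. The matricellular gene Smoc2 was highest at 1 Pi16 UMI in both libraries, at 297, 471 and 155 CPM in PBS and 340, 935 and 188 CPM in CFA. The apolipoprotein gene Apod was lowest in the cells with most Pi16, at 196 CPM in PBS and 903 CPM in CFA. The 3 classes held 202, 34 and 74 PBS and 125, 31 and 72 CFA cells, so the middle class rests on few cells.

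**Figure D2:**
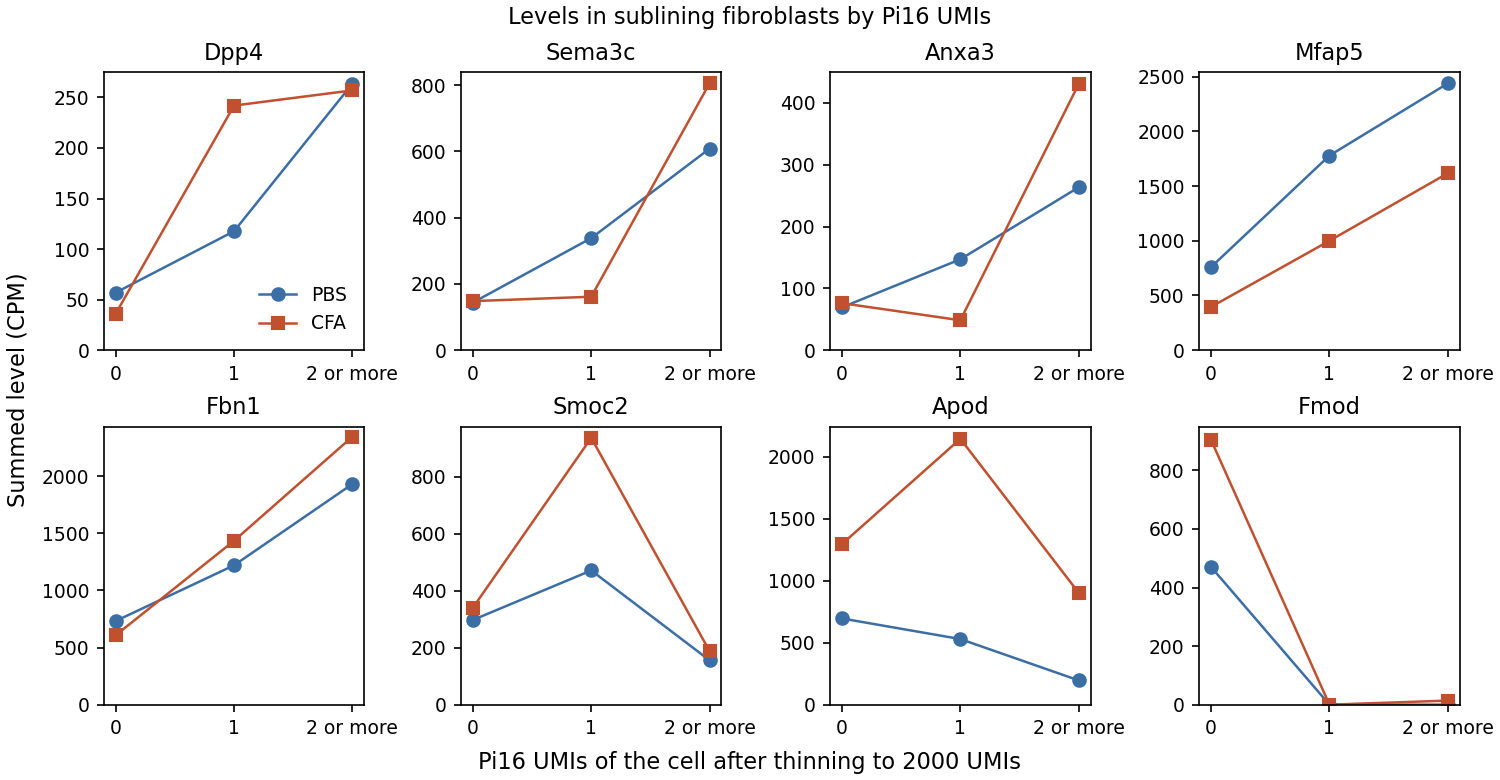
Summed level (CPM) of 8 genes in sublining fibroblasts with 0, 1, and 2 or more Pi16 UMIs after thinning to 2000 UMIs, PBS in blue and CFA in red. Dpp4, Sema3c, Mfap5 and Fbn1 are highest in the last class in both libraries, Smoc2 peaks at 1 UMI, and Fmod is at 470 and 904 CPM in cells without Pi16 and at 0 to 13.9 CPM in the rest.

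The second comparison asked how members differed between CFA and PBS, a contrast that the rule for members did not use. Members and lists were, however, chosen with earlier results of these data known, so list counts and medians are described only. Of the 8286 genes, 371 (4.48%) were at least 2-fold higher in CFA members and 295 (3.56%) at least 2-fold lower, and the median ratio of all genes was 1.0. The lists with the highest medians were antigen presentation, genes induced by interferon gamma, acute phase genes, genes induced by type I interferon and complement. Collagen and elastic fibre lists lay below 1, and immediate-early and transcription factor lists lay near it. Since each condition has 1 library, the treatment cannot be told apart from any other difference between the 2 libraries.

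**Figure D3:**
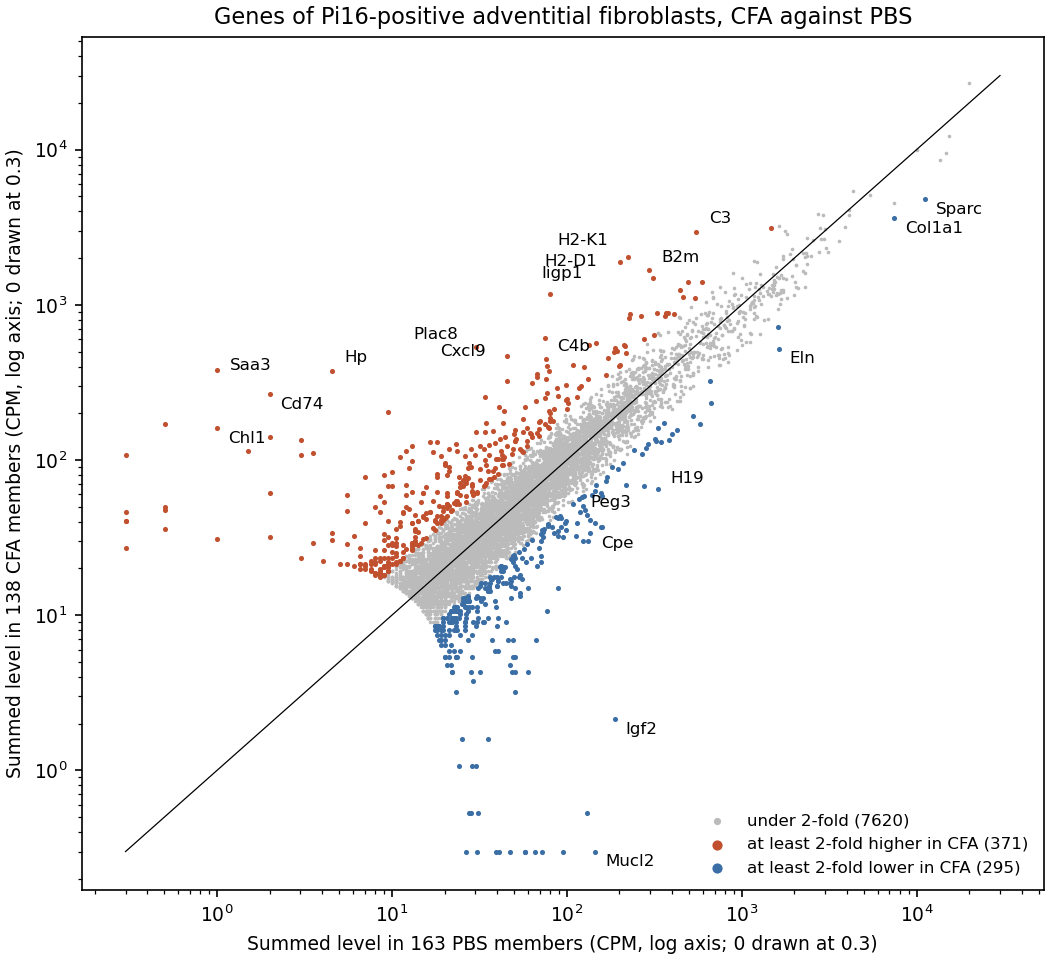
Each point is 1 of 8286 genes, with its summed level in the 163 PBS members on the x axis and in the 138 CFA members on the y axis (CPM, both axes log, 0 drawn at 0.3). Red points (371) are at least 2-fold higher and blue points (295) at least 2-fold lower in CFA, and H2-K1, for example, goes from 224 to 2023 CPM.

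**Figure D4:**
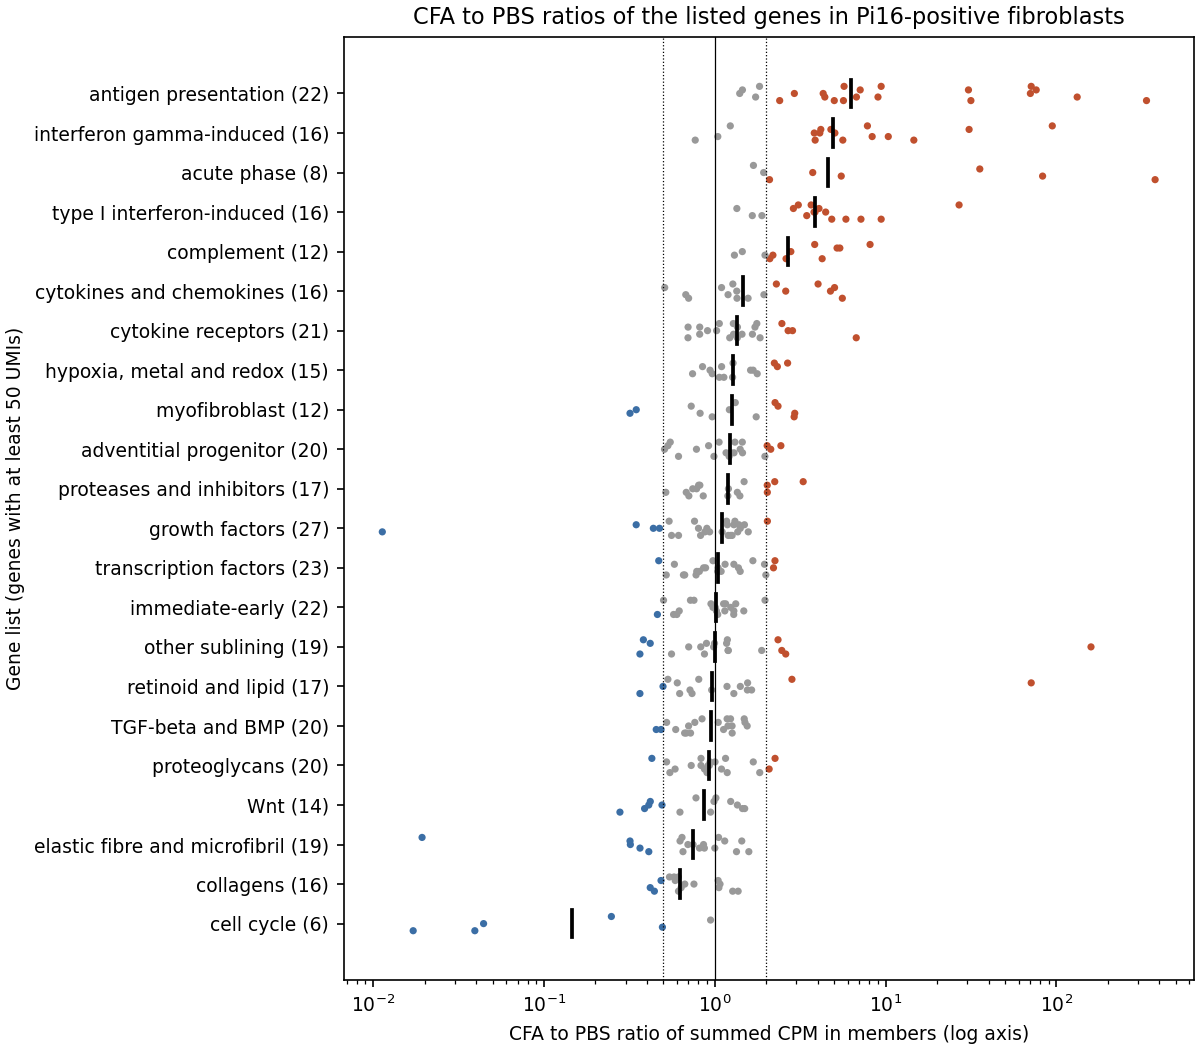
CFA to PBS ratios of the genes of each list in members (log axis), 1 point per gene with at least 50 UMIs and a black bar at the list's median, dotted lines marking 2-fold. Antigen presentation has the highest median, 6.22, with 18 of 22 genes past 2-fold, and collagens have a median of 0.62 with none higher.

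Antigen presentation genes were higher in 18 of 22 and lower in none, with a median ratio of 6.22 against 5.98 in the Pi16-negative cells. H2-K1, a classical MHC class I heavy chain, was at 224 CPM in PBS and 2023 CPM in CFA members, a ratio of 9.01 (interval 8.17 to 9.97), and H2-D1, the other classical heavy chain, at 201 and 1889 CPM, a ratio of 9.41 (interval 8.48 to 10.5). B2m, the light chain that all class I molecules share, was at 295 and 1670 CPM, a ratio of 5.66. H2-K1 UMIs were held by 136 of 163 PBS and 134 of 138 CFA members, and the median cell went from 2 to 14 UMIs. Further along the pathway, the immunoproteasome subunits Psmb8 and Psmb9 had ratios of 5.0 and 6.74, the peptide transporter subunits Tap1 and Tap2 5.71 and 2.40, and the class I transactivator Nlrc5, at 2.01 CPM in PBS and 61.4 CPM in CFA, 30.5 (interval 11.6 to 114). The chaperone Tapbp and the proteasome genes Psme1, Psme2 and Psmb10 had ratios of 1.40 to 1.83. The nonclassical genes H2-Q6 and H2-Q7 were at 0 and 0.503 CPM in PBS and at 107 and 169 CPM in CFA members. With its PBS level set to a floor of 3 UMIs, H2-Q6 had a ratio of 71.1, and its exact interval starts at 57.3. H2-Q7, with 1 PBS UMI, had a ratio of 337 with an interval that starts at 60.0. These class I genes are near-identical copies of each other, so UMIs may have been assigned to the wrong copy.

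MHC class II genes, which present peptides to helper T cells and are characteristic of professional antigen-presenting cells, were nearly absent in PBS members and present in a minority of CFA members. Cd74, the class II invariant chain, was at 2.01 and 266 CPM with UMIs in 3 PBS and 46 CFA members. H2-Aa was at 2.01 and 142 CPM, H2-Ab1 at 1.51 and 115 CPM and H2-Eb1 at 3.52 and 111 CPM, and the chains H2-Aa and Cd74 were both detected in 26 CFA members. In the CFA library Cd74 was at 4471 CPM in non-neutrophil immune cells and 644 CPM in endothelial cells, but at 28.9 CPM in glia, 34.5 CPM in mural cells and 16.6 CPM in cartilage and bone cells. After thinning to 2000 UMIs, 13.9% of CFA members (interval 8.56% to 20.8%) and 8.09% of CFA glia held a Cd74 UMI, and the glial share lies just below that interval. In the 16 CFA members with at least 5 Cd74 UMIs, Cd74 stood at 1227 CPM, while the macrophage genes Tyrobp, C1qa and Cd68 reached at most 2, 2 and 1 UMIs in a cell and Lyz2 stood at 137 CPM against 133 CPM in the other 122. Those 16 cells were deep, with a median of 22842.5 UMIs against 11027. When the 62 CFA members with 3 or more UMIs of 8 immune genes, Cd74 among them, were left out, the median ratio of the antigen presentation list was 3.98 over the 76 CFA members that remained, and the ratio of Cd74 itself, 132 over all members, was 5.45. Those 62 members were picked partly by Cd74 itself and all lay in CFA, so ratios given without them here and below are no test. The part of the immune transcripts in these ratios was not tested.

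Genes induced by interferon gamma were higher in 13 of 16 and lower in none (median ratio 4.91, against 7.69 in Pi16-negative cells). Among those with at least 100 CPM in CFA, the GTPase gene of cell-autonomous defence Iigp1 had the highest ratio, at 80.0 and 1169 CPM (ratio 14.6, interval 12.4 to 17.3), with UMIs in 46 of 163 PBS and 106 of 138 CFA members, and Igtp, a related GTPase gene, was at 16.6 and 130 CPM (ratio 7.82, interval 5.42 to 11.6). The guanylate-binding protein genes Gbp2, Gbp3, Gbp5, Gbp6 and Gbp7 had ratios of 3.82 to 8.33. Gbp4, Gbp8 and Gbp9 had higher ratios that rested on 1 or 2 PBS UMIs. Gbp4 had a ratio of 94.5 (interval 16.5 to 3773) at 47.5 CPM in CFA, Gbp8 of 30.8 (interval 8.15 to 260) at 31.0 CPM, and Gbp9, which did not pass the filter on low values, of 38.2 (interval 6.44 to 1551) at 19.2 CPM. Cxcl9, a chemokine for T cells, was at 45.3 and 469 CPM (ratio 10.4), but 65.6% of its PBS and 65.8% of its CFA UMIs came from 3 cells, and without the 62 CFA members named above its ratio was 2.08. Irf1, Socs1 and Cxcl10 stayed within 2-fold, at ratios of 1.04, 1.23 and 0.77. Iigp1 was also at 1523 and 1963 CPM in endothelial cells, and in glia, which share the free RNA of their library, 7.35% of thinned CFA cells held an Iigp1 UMI against 56.2% of CFA members.

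Genes induced by type I interferon were higher in 13 of 16 and lower in none (median ratio 3.83). Bst2, tetherin, which holds budding viruses at the cell surface, was at 76.0 and 444 CPM (ratio 5.85, interval 4.91 to 7.0), in 83 PBS and 108 CFA members. Zbp1, a sensor of nucleic acids, was at 11.1 and 104 CPM (ratio 9.41), and Ifit1, which binds viral RNA, at 18.1 and 130 CPM (ratio 7.17). Isg15, a ubiquitin-like modifier, was at 50.3 and 155 CPM (ratio 3.08), and Ifi27l2a at 230 and 875 CPM (ratio 3.81). The receptor genes for both interferon types stayed within 2-fold, with ratios of 1.35 for Ifnar1, 1.29 for Ifnar2, 1.02 for Ifngr1 and 0.82 for Ifngr2.

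The promoters of 3 of these genes are printed because the genes were higher together and their windows hold letters known to be read by interferon-activated factors. The windows are the 250 bases before the annotated start in RefSeq on GRCm38.p6, read 5′ to 3′ on the gene's strand. Capitals mark every match, on either strand, to GAAANNGAAA, the core of the interferon-stimulated response element (ISRE), to TTCNNNGAA, the gamma-activated site (GAS), or to the letters GGGANTTTCC of an NF-kB site. B2m lies at chr2:122147437-122147686 on the plus strand, Igtp at chr11:58199306-58199555 on the plus strand and Bst2 at chr8:71537473-71537722 on the minus strand.
B2m: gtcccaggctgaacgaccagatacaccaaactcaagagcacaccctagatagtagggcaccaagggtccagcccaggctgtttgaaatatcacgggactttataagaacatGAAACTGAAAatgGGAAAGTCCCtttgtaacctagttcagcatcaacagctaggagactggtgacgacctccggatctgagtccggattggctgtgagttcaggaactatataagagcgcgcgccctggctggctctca
Igtp: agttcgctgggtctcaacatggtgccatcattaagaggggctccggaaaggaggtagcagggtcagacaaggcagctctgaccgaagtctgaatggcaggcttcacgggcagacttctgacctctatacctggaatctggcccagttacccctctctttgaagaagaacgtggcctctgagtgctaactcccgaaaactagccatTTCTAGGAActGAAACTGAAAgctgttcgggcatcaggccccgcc
Bst2: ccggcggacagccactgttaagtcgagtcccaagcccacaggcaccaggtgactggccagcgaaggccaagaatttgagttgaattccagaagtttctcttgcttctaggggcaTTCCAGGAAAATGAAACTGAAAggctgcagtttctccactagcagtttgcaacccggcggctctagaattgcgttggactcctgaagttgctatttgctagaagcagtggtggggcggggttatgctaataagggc

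In B2m an ISRE match lay 139 to 130 bases before the start and the NF-kB letters 126 to 117 bases before it, and in Igtp a GAS match at 45 to 37 bases was followed by an ISRE match at 34 to 25 bases. In Bst2 the GAS match at 136 to 128 bases and ISRE matches at 130 to 121 and 124 to 115 bases overlapped in 1 run of capitals. Over all 32851 promoter windows of 27025 genes, 2.98% held an ISRE match, 7.02% a GAS match and 0.356% the NF-kB letters. Of the 13 windows found for 11 of the interferon gamma-induced genes, 9 held an ISRE match and 5 a GAS match, and of 13 windows for 12 type I interferon-induced genes 5 and 2 did. Antigen presentation genes had 20 windows, with 3 ISRE and 2 GAS matches, and no match to any of the motifs was found in the windows of H2-K1, H2-D1, C3, Cxcl9, Lcn2 or Plac8. Elastic fibre and microfibril genes had 22 windows, with 3 ISRE matches and 1 GAS match, and collagen genes had 14 windows with none. A match is a string of letters and not a measured binding site, and a window without one says nothing of sites elsewhere.

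Complement genes were higher in 9 of 12 and lower in none (median ratio 2.70, against 3.42 in Pi16-negative cells). C3 was at 549 and 2962 CPM (ratio 5.39, interval 5.05 to 5.76) and was held by 90 of 163 PBS and 122 of 138 CFA members, the median cell going from 1 to 20 UMIs. C4b, of the classical and lectin pathways, was at 75 and 607 CPM (ratio 8.10), in 41 PBS and 97 CFA members. Cfb was at 77.5 and 402 CPM (ratio 5.19), the initiating proteases C1ra and C1s1 had ratios of 2.61 and 2.19, and Serping1, the C1 inhibitor, had 1.97. After thinning, 38.5% of PBS and 81.0% of CFA members held a C3 UMI, against 0.387% and 2.24% of endothelial cells and 0% and 0.735% of glia.

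Acute phase genes were higher in 6 of 8, and several of them were concentrated in few cells. Lbp, lipopolysaccharide-binding protein, was broadly present, at 109 and 406 CPM (ratio 3.74) in 79 PBS and 108 CFA members. Saa3, serum amyloid A3, was at 1.01 and 380 CPM, but only 20 CFA members held it and 3 of them gave 84.1% of its UMIs. Haptoglobin (Hp) was at 4.53 and 375 CPM, held by 29 CFA members with 45.4% of UMIs in 3 of them. Lcn2, lipocalin-2, was at 3.02 and 107 CPM, held by 27 CFA members with 59.7% of its UMIs in 3 cells. The CFA level of Lcn2 fell under the limit used for the rankings, so free RNA of another cell type could carry it. The ratio of Lcn2, 35.6, was 2.69 without the hemoglobin limit. It was 2.18 without the 62 CFA members that held 3 or more immune UMIs. The ratio of Saa3, 378 (interval 104 to 3127, from 2 PBS UMIs), was 40.0 without the 3 members of each library richest in it. Hp and Lcn2 were both detected in 16 CFA members, and Hp and Chl1 in 20. Chl1, a neural cell adhesion gene also carried by some fibroblasts, was at 1.01 CPM in PBS from 1 cell and at 160 CPM in CFA from 43 cells, a ratio of 159 (interval 43.7 to 1320). The 16 CFA members with at least 5 Hp UMIs held Saa3 at 2054 CPM, Cxcl9 at 2251 CPM and C3 at 4708 CPM, against 9.14, 73.7 and 2574 CPM in the other 122, and their median depth was 22102 against 11302 UMIs. Hp was at 1140 CPM in CFA neutrophils, whose 8 markers summed in CFA members to 0.0848% of their neutrophil level. Saa3 and Hp were also high in the CFA Pi16-negative cells, at 2030 and 1642 CPM.

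Of 16 cytokine and chemokine genes, 6 were higher and none lower. Cxcl12, which retains leukocytes and progenitors, was at 212 and 552 CPM (ratio 2.60, interval 2.32 to 2.92), but its ratio was 1.81 to 1.95 under 4 of the 16 alternative settings. The monocyte chemokine genes Ccl2, Ccl7 and Ccl8 had ratios of 4.75, 5.02 and 4.02, at 95.6, 316 and 84.9 CPM in CFA members. They came from 18, 32 and 40 CFA cells, and for Ccl2 3 cells gave 59.8% of the UMIs. The ratio of Ccl2 was 7.64 without the 3 members of each library richest in it and 1.16 when members were chosen after thinning. Ccl7 was at 46.0 CPM and Ccl8 at 7.81 CPM in the CFA Pi16-negative cells, where their own CFA to PBS ratios were 1.37 and 0.51. Il6 and Cxcl1 stayed within 2-fold, at ratios of 1.09 and 0.68. The remaining higher genes were Cxcl14 (2.29) and the B cell factor Tnfsf13b (5.57), the latter at 4.02 and 22.4 CPM. Among 21 cytokine receptor genes 4 were higher and none lower: the interleukin 1 receptor Il1r1 at 99.1 and 245 CPM (ratio 2.47), the interleukin 6 receptor Il6ra (2.68), the interleukin 17 receptor Il17ra (2.85) and the TNF receptor Tnfrsf1b (6.72).

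Genes outside the lists with ratios of this size included Plac8, a small cysteine-rich protein gene, at 30.2 and 532 CPM (ratio 17.6, interval 13.6 to 23.3) in 24 PBS and 85 CFA members. After thinning, 38.0% of CFA members held a Plac8 UMI against 1.63% of endothelial cells and 4.41% of glia, although immune cells of the CFA library also carried it at 558 CPM. Trim30a, an interferon-inducible ubiquitin ligase gene, was at 13.1 and 123 CPM (ratio 9.39), and the zinc transporter Slc39a14 at 34.2 and 256 CPM (ratio 7.48).

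Of the adventitial progenitor genes, 3 of 20 were higher in CFA members and none lower, with a median ratio of 1.23 against 0.69 in Pi16-negative cells. Ly6c1 was at 461 and 1123 CPM (ratio 2.43), Ly6a, also called Sca-1, at 1469 and 3120 CPM (ratio 2.12) and the hyaluronan synthase Has1 at 314 and 636 CPM (ratio 2.02). These lie near the 2-fold limit, and over the alternative settings they ranged from 1.99 to 2.54 for Ly6c1, from 1.68 to 2.30 for Ly6a and from 1.48 to 2.22 for Has1. Ly6 genes are close copies of each other, so their UMIs may have been split between copies. Dpp4 was at 201 and 199 CPM, a ratio of 0.99 (interval 0.86 to 1.14), in 80 PBS and 68 CFA members. Thy1, Smpd3, Tppp3 and Igfbp6 were lower by less than 2-fold, with ratios of 0.51 to 0.61. Among 19 other sublining genes 4 were higher and 3 lower: Cxcl12, Inmt, Comp and Chl1 had ratios of 2.34 to 159, and Apoe, Penk and the basement membrane collagen Col15a1 had ratios of 0.36, 0.38 and 0.42.

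Collagen genes were lower in 3 of 16 and higher in none, with a median ratio of 0.62 against 0.82 in Pi16-negative cells. Col1a1, an alpha chain of the main fibrillar collagen, was at 7467 and 3613 CPM (ratio 0.48, interval 0.47 to 0.50, and 0.68 when members were chosen after thinning), Col1a2 at 7434 and 4539 CPM (0.61) and Col3a1 at 13572 and 8614 CPM (0.63). Col1a1 was detected in all 163 PBS and in 137 of 138 CFA members, and the median cell went from 53 to 21 UMIs. The collagen VI chains Col6a1, Col6a2 and Col6a3 had ratios of 0.67, 0.59 and 0.58, while the collagen IV chains Col4a1 and Col4a2 stayed at 1.07 and 1.05 and Col5a2 was at 1.27. Sparc, a collagen-binding secreted glycoprotein, was at 11236 and 4804 CPM, a ratio of 0.43 (interval 0.42 to 0.44, and 0.54 when members were chosen after thinning), against 0.83 in Pi16-negative cells, and lumican (Lum), which spaces collagen fibrils, was at 1110 and 578 CPM (0.52). Gsn, an actin-severing protein gene and one of the most abundant transcripts of members, was at 14723 and 9456 CPM (0.64), while Malat1, Tpt1 and Fth1, also among the most abundant, had ratios of 1.35, 0.98 and 1.26. Biglycan (Bgn), tenascin X (Tnxb) and Fstl1 had ratios of 0.91 to 1.0.

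Elastic fibre and microfibril genes were lower in 5 of 19 and higher in none (median ratio 0.75, as in Pi16-negative cells). Eln was at 1633 and 522 CPM (ratio 0.32, interval 0.30 to 0.34), with UMIs in 136 of 163 PBS and 77 of 138 CFA members, and 62.7% of its CFA UMIs came from 3 cells. After thinning, 58.4% of PBS and 26.3% of CFA members held an Eln UMI. The microfibril-associated genes Mfap2 and Mfap4 had ratios of 0.41 and 0.36, and Fbn2, fibrillin-2, went from 27.7 to 0.534 CPM, a single CFA UMI (ratio 0.019, interval 0.00048 to 0.11). Fbn1 and Fbln1, in contrast, were at ratios of 1.14 and 1.34, and the crosslinking enzyme Lox was at 1.58. Of 17 proteases and their inhibitors 4 were higher and none lower. Timp1, an inhibitor of matrix metalloproteinases, was at 88.0 and 289 CPM (ratio 3.29). Its ratio was 1.52 without the 62 CFA members that held 3 or more immune UMIs. Mmp19 had a ratio of 2.03, and Mmp3 had 2.24, with 76.1% of its CFA UMIs in 3 cells and a ratio of 1.14 without the 3 richest members. Timp3 was at 0.52 and Mmp2 at 0.78.

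Of 14 Wnt genes, 5 were lower and none higher. Wnt5a was at 71.4 and 29.9 CPM (ratio 0.42), Wnt2 at 22.1 and 9.08 CPM (0.41), the secreted Frizzled-related protein Sfrp2 at 658 and 323 CPM (0.49), and the inhibitor Dkk2 and the agonist Rspo3 at 0.39 and 0.28. Of 20 TGF-beta and BMP genes, Tgfbi (0.45) and follistatin (Fst, 0.48) were lower and none was higher. Among 27 growth factor genes 4 were lower and 1 higher. Pleiotrophin (Ptn) was at 668 and 231 CPM (0.35), Mdk, midkine, at 89.1 and 42.2 CPM (0.47), and Hgf at 34.2 and 69.4 CPM (2.03). Insulin-like growth factor 2 (Igf2) was at 189 CPM in PBS, from 39 cells of which 3 gave 53.5% of UMIs, and at 2.14 CPM in CFA from 2 cells, a ratio of 0.011 (interval 0.0031 to 0.029).

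Igf2 is imprinted, meaning that 1 parental copy is silent, and so are its neighbour H19 and Peg3. H19, a noncoding RNA, was at 331 and 64.6 CPM (ratio 0.20, interval 0.16 to 0.24), held by 39 PBS and 14 CFA members, with 38.3% and 66.1% of its UMIs in 3 cells. Peg3, a zinc finger gene, was at 278 and 67.8 CPM (ratio 0.24, interval 0.20 to 0.30), held by 108 PBS and 43 CFA members. In Pi16-negative cells the ratios of Igf2, H19 and Peg3 were 0.38, 0.097 and 0.61. Other genes among the lowest ratios were Cpe, a carboxypeptidase for prohormones (136 and 33.6 CPM), Pi15, a peptidase inhibitor (159 and 36.9 CPM), the basement membrane chain Col4a5 (146 and 39.0 CPM), Maged2 (219 and 69.4 CPM), the stress gene Gadd45b (131 and 44.3 CPM), the axon guidance gene Slit2 (114 and 39.0 CPM) and the synaptic scaffold gene Homer1 (132 and 29.9 CPM). Of the Homer1 UMIs in PBS 39.2% lay in 3 cells, and its ratio of 0.23 was 0.82 when members were chosen after thinning. Slit2 had 48.2% of its PBS and 46.6% of its CFA UMIs in 3 cells. C430049B03Rik, a noncoding gene, went from 130 CPM in 57 PBS members to 1 UMI in CFA. Mucl2, at 145 CPM in PBS members, had no UMI in CFA members, but this was not particular to members. It was at 1517 CPM in Pi16-negative cells, 666 CPM in endothelial cells and 259 CPM in glia of the PBS library, and at 0 in the same groups of the CFA library. The predicted genes Gm47283 and Gm10076 had ratios of 0.23 and 0.29 and were likewise lower in CFA endothelial cells, at 54.4 against 175 and 116 against 366 CPM.

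The lists described next had median ratios between 0.92 and 1.27, although single genes moved further. Of 22 immediate-early genes, which are known to respond to tissue dissociation, 1 was lower and none higher (median ratio 1.01): Fos was at 2561 and 2614 CPM, Jun at 1893 and 2130 CPM, and the lower gene was Egr3 (0.46). Of 23 transcription factor genes, the mesenchymal factors Ebf1 and Prrx1 were at 1.15 and 1.09, 2 were higher, Tbx18 (2.25) among them, and Osr2 was lower (0.47). Of 15 hypoxia, metal and redox genes 3 were higher, namely metallothionein 2 (Mt2, 2.32), extracellular glutathione peroxidase (Gpx3, 2.67) and Ndrg1 (2.23). Of 17 retinoid and lipid genes, Apod was at 494 and 1395 CPM (ratio 2.83) and Crabp2, which carries retinoic acid, at 0.503 and 35.8 CPM from 1 and 10 cells, while Apoe and the retinoic acid-producing enzyme gene Aldh1a2 (0.50) were lower. Myofibroblast genes were mixed, with 4 of 12 higher and 2 lower. Ccn2 was at 34.2 and 100 CPM (2.94), and Acta2, smooth muscle actin, at 15.6 and 45.4 CPM (2.91), with 76.5% of CFA UMIs in 3 cells and a ratio of 0.653 without the hemoglobin limit, while Myl9 was at 0.35. Of 20 proteoglycan and matricellular genes, Thbs2 and Cthrc1 were higher (2.08 and 2.25) and Sparc lower.

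Of 6 cell cycle genes 5 were lower in CFA, and their PBS UMIs came from few cells. Top2a was at 31.2 CPM in PBS with 90.3% of UMIs in 3 cells, Mki67 at 24.1 CPM with 77.1% in 3 cells, and Cenpf at 40.8 CPM with 97.5% in 3 cells. No CFA member held a Cenpf UMI, against 5 PBS members. Without the 6 PBS members that held 2 or more UMIs of these 3 genes, the median ratio of the list was 0.929 in place of 0.146. Those cells were picked by genes of the list itself and all lay in PBS, so this difference is no test.

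The list sums were last read in single members thinned to 2000 UMIs, 161 in PBS and 137 in CFA. Antigen presentation UMIs had a median of 2 and a middle range (25th to 75th percentile) of 1 to 3 in PBS, and a median of 10 and a middle range of 5 to 17 in CFA, with 12.4% of PBS and 0.730% of CFA members at 0. Complement UMIs had medians of 6 and 15, and the middle ranges, 3 to 9 and 8 to 23, overlapped slightly. Interferon gamma-induced UMIs had medians of 1 and 3, with a highest value of 12 in PBS and 31 in CFA. Collagen UMIs had medians of 52 and 28 and middle ranges of 38 to 84 and 19 to 41. Elastic fibre UMIs, at medians of 16 and 13, and adventitial progenitor UMIs, at 23 and 28, overlapped over most of their ranges. Cells of 1 library are not replicates, and these distributions describe the members of each library.

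**Figure D5:**
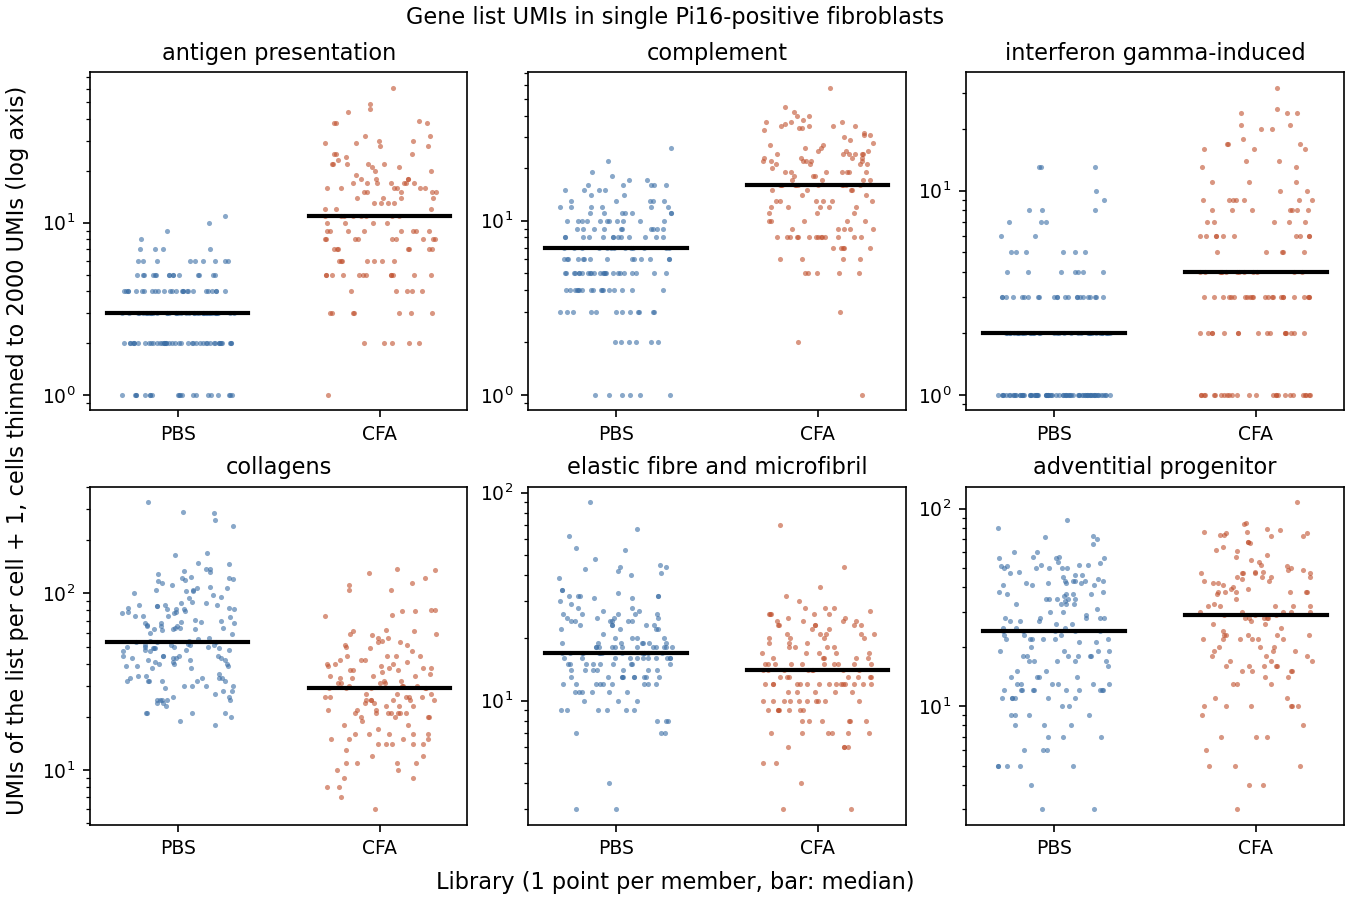
UMIs of 6 gene lists in each member after thinning to 2000 UMIs (log axis, 1 added to each value), 1 point per cell with a bar at the median, PBS in blue and CFA in red. Antigen presentation shifts from a median of 2 to 10 UMIs with most CFA cells above the PBS middle range, collagens shift down from 52 to 28, and adventitial progenitor UMIs overlap.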

How the data were processed

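Female mouse TMJs were measured by droplet scRNA-Seq in 1 PBS and 1 CFA library. Per the methods and the submitters' processing notes, the authors aligned reads to GRCm38 (mm10) with Cell Ranger 7.0.1 and deposited filtered barcodes with raw UMI counts for 32285 genes, not normalized. The annotation release is not given in the sources used here.

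Python 3.11.15 (numpy 2.4.6, scipy 1.17.1, pandas 2.3.3, matplotlib 3.10.9) computed all values. Cells were kept and gated as described above, counts were summed per library over members and over Pi16-negative cells, and ratios of CPM carry exact conditional binomial 95% intervals, shares exact Clopper-Pearson ones. Endothelial, mural, glial, immune, neutrophil, and cartilage and bone cells, used for background levels, were gated by a few marker UMIs each. A sum of 0 was set to a floor of 3 UMIs per library. Of the genes, those with at least 50 UMIs over members of both libraries were compared, and 38 symbols carried by more than 1 gene ID were left out of lists. Thinning drew 2000 UMIs per cell without replacement (seed 1), leaving out 2 PBS and 1 CFA members. The ratios, intervals and thinning were checked on simulated counts drawn independently, a setting that leaves out the clustering of UMIs in few cells.

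Named genes were those of the lists, the 15 highest and 15 lowest CFA to PBS ratios with at least 100 CPM in the higher library, and the 10 highest and 10 lowest ratios to Pi16-negative cells. From these rankings, mitochondrial, ribosomal, hemoglobin, immunoglobulin and rule genes were left out. So were genes whose level in the group where they were higher was under 0.2 of that in another cell type, which free RNA could carry. Genes named through the lists did not have to pass this limit, and Cd74, H2-Aa, H2-Ab1, H2-Eb1 and Lcn2, for example, fell under it. Genes with no UMI in either group got no ratio. The 10 most abundant genes were also named. Members and lists were chosen with earlier results of these data known. Promoters came from RefSeq (GRCm38.p6). Alternatives changed the cell limits, the Pi16 limit, the depth, the scaling, the gene filter and the members kept. A few genes of the lists are counted but not reported by name here.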

Additional observations from a re-analysis of the deposited data

Results flagged for a closer look

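Rspo2, a secreted enhancer of Wnt signalling, differed in direction between members and Pi16-negative sublining cells. In members it was at 49.8 CPM in PBS and 147 CPM in CFA, a ratio of 2.95 (interval 2.34 to 3.75). In Pi16-negative cells it was at 26.8 and 8.68 CPM, a ratio of 0.32 (interval 0.15 to 0.64). The difference between these ratios was not tested, since each condition has 1 library. Rspo2 UMIs were held by 27 PBS and 13 CFA members, and 3 members gave 81.5% of them in CFA against 34.3% in PBS.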

How the results depend on the processing

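No paired analysis was possible because each condition has 1 library. Of 16 alternatives, 11 were set with the design and 5 were added after the data had been seen (leaving out members with cycling, immune or glial UMIs, leaving out the 3 members richest in a gene, and CPM without mitochondrial, ribosomal and hemoglobin UMIs). Of 138 named genes past 2-fold, 87 were past it in the same direction under every setting in which they could be computed. Of the genes given above, Aldh1a2, C1s1, Ccl2, Col15a1, Col1a1, Cthrc1, Cxcl12, Cxcl14, Egr3, Fst, Gpx3, Has1, Hgf, Homer1, Il17ra, Inmt, Ly6a, Ly6c1, Mdk, Mfap4, Mki67, Mmp19, Mt2, Ndrg1, Osr2, Rspo3, Sfrp2, Slit2, Sparc, Tap2, Tbx18, Tgfbi, Thbs2, Timp1, Top2a, Wnt2 and Wnt5a came within 2-fold under at least 1 setting, beside the reversals given last. The CFA to PBS ratio of the member share of kept cells, 0.562, was 0.821 without the hemoglobin limit, 0.827 over every deposited barcode and 0.740 when the rule followed thinning, where the ratio of sublining shares was 1.62 in place of 1.17. Genes 2-fold higher than in Pi16-negative cells in both libraries numbered 79 after thinning and 195 by the mean over cells, and lower ones 57 after thinning and 801 with at least 1 UMI per gene in each library, against 299 and 156. That looser filter, over 14317 genes, gave 1336 higher and 1324 lower genes in CFA. The myofibroblast median was 0.731 both without the hemoglobin limit and over every barcode, and Acta2 then stood at 0.653 and 0.650. Without members holding 3 or more immune UMIs, which leaves 76 CFA members, the acute phase median was 2.83 and the antigen presentation median 3.98. The cell cycle median, 0.146, was 0.0442 with a hemoglobin limit of 5%, 0.372 without one, 0.0671 with a mitochondrial limit of 20%, 0.376 over every barcode, 0.971 with 2 or more Pi16 UMIs, 0.361 after thinning, 0.965 without the deepest 10% of members, 0.312 by the mean over cells, 0.493 with at least 1 UMI per gene, and 0.929, 0.309 and 0.0850 without cycling, immune and glial members. Thinning turned Comp to 0.800 and Ltbp2 to 1.24. Leaving out the deepest 10% turned Cenpf to 1.64, Mmp3 to 0.408 and Stmn1 to 1.19, and Cenpf was 2.99 without cycling members and 1.59 without the 3 members richest in it. The cause of these shifts was not tested.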
